A study of Drosophila melanogaster with 60 samples.

Results

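Fly heads collected in the last hour before lights-on were compared with heads collected 3 h after it, in the driver control of an RNAi experiment on the transcription factor gene cabut (cbt). The comparison takes 6 of the 60 libraries of the study, chosen by their labels: 3 replicates of conRNAi heads at Zeitgeber time (ZT, hours after lights-on) 23 and 3 replicates of the same genotype at ZT3. The conRNAi flies (Drosophila melanogaster) carried Tim-gal4 and UAS-Dcr2. Tim-gal4 is a driver active in cells that express timeless, and UAS-Dcr2 adds Dicer-2, an enzyme of the RNA interference pathway, in those cells, so every library of this genotype carries both. The other genotypes are used below only for the same pair of times: conOE (Tim-gal4 alone, 2 replicates per time), heads labelled RNAi (Tim-gal4 with UAS-cbt RNAi, 3 replicates) and heads labelled OE (Tim-gal4 with UAS-cbtFLAG, 2 replicates). The labels give neither sex nor age, and do not say which libraries share flies, so the p-values below measure the spread between these libraries, part of which may be technical. Time of day and light change together between ZT23 and ZT3, and the design cannot tell them apart.

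In the fly clock, the transcription factors encoded by Clk and cyc switch on per and tim, and the PER and TIM proteins later shut that activity down. A linked loop runs through vri and Pdp1, whose proteins act on Clk. Light reaches the clock through cryptochrome, the blue-light receptor encoded by cry, which triggers the loss of TIM protein after lights-on. The head holds these clock cells beside photoreceptors, other neurons, glia, muscle and a fat body that makes and stores fat and sugar reserves.

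RNA was measured by 3′ RNA-seq, which counts reads near the poly(A) end of each transcript. The values given here are the deposited ones, each a read count divided by a factor for its library, and they can be compared between libraries of the same table but not between genes as amounts of RNA. Differences are on the scale of log2(value + 1), which understates changes of weakly detected genes. The ZT23 libraries held 8951084, 792621 and 6973227 reads over the listed transcripts (replicates 1, 2 and 3), and the ZT3 libraries 5496375, 2652930 and 3487136. Replicate 2 at ZT23 was thus the shallowest of the 6, and without it 24 of the 43 genes called below lost their call. Loss of calls was not particular to it: 19 of the 43 were kept without it. Only 11 were kept without ZT23 replicate 1, the deepest. Markers of the head were present: 34 of 35 phototransduction genes were measured, with summed values of 106616 to 113152 at ZT23 and 107066 to 116573 at ZT3, as were 19 of 19 pan-neuronal, 14 of 14 glial and 16 of 17 muscle genes. Of the 4 gut serine proteases none was listed. The 7 measured head fat body genes summed to 13995 to 19847 at ZT23 and 14195 to 16121 at ZT3, and these ranges overlapped. In whole heads, fewer cells of a type and less RNA per cell cannot be told apart.

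Of 7413 genes, 43 differed between ZT3 and ZT23 at an adjusted p under 0.05 (0.58% of those tested; limma-trend over all 18 conRNAi libraries with Benjamini-Hochberg adjustment). Of these, 23 were higher at ZT3 (0.31%) and 20 lower (0.27%). Among the lower genes were the clock genes tim and vri, and among the higher ones were cry and a set of genes for sugar and fat metabolism. At an unadjusted p under 0.05 there were 840 genes, or 11.3%, with 5.73% higher and 5.6% lower. The size of the called changes ran from 0.50 to 1.87 on the log2 scale, and 6 of the 23 higher and 6 of the 20 lower genes changed more than 2-fold. In all 43, the 3 ZT3 values lay wholly above or wholly below the 3 ZT23 values, a separation also seen in 14.2% of all genes tested.

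**Figure D1:**
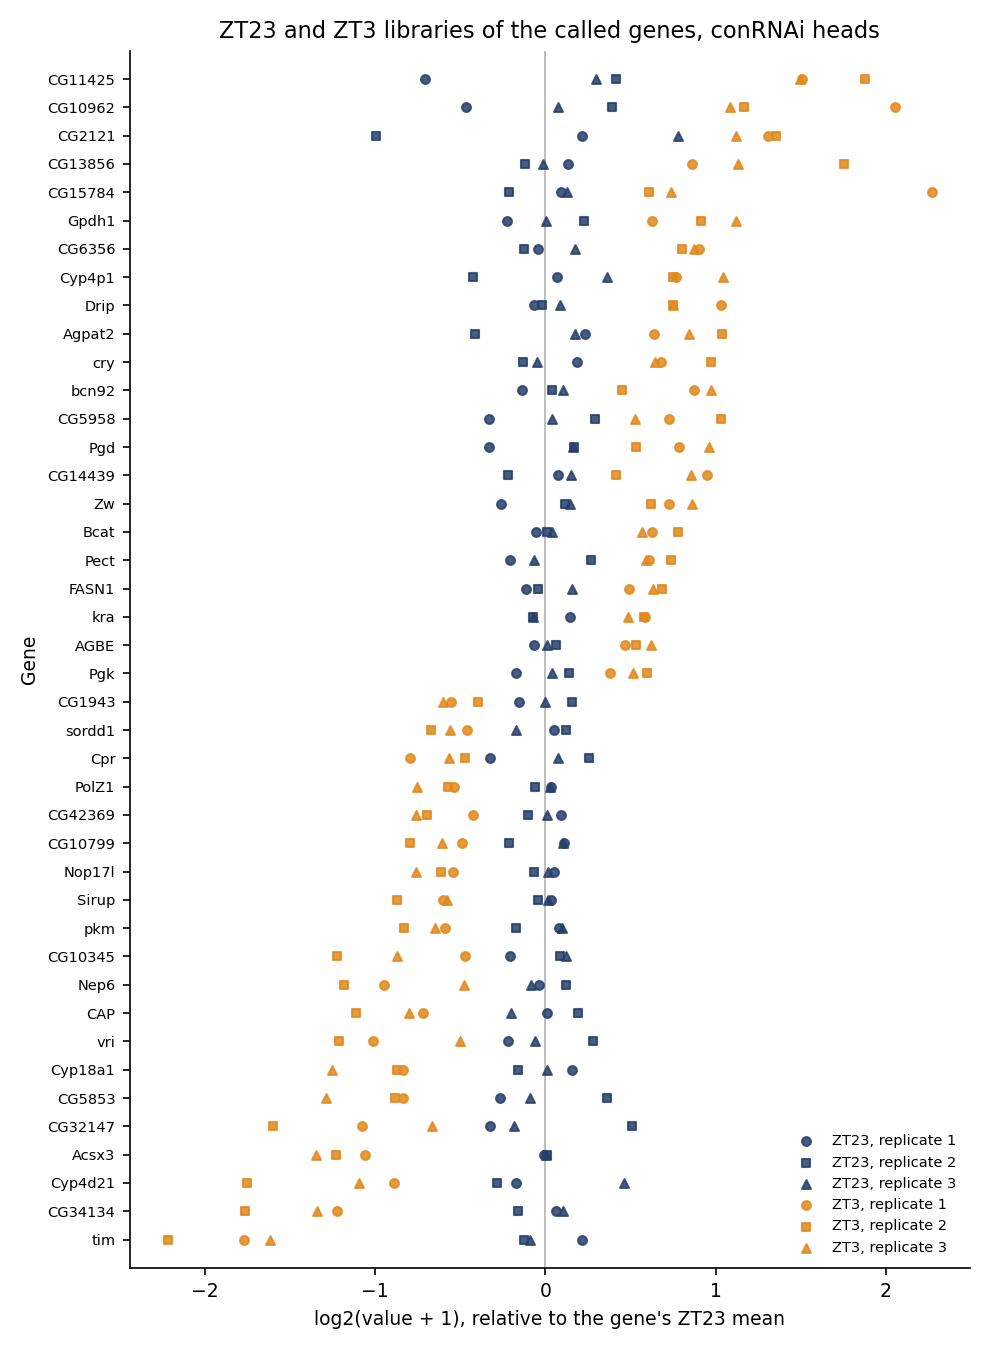
Values of 42 of the 43 called genes in the 6 conRNAi libraries, as log2(value + 1) relative to the mean of the gene's ZT23 libraries (x axis), with 1 gene per line (y axis). Dark points are ZT23, orange points ZT3, and the marker shape gives the replicate. For every gene shown the orange points lie on one side of the dark ones, and CG15784 has a single ZT3 library far above the others.

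Calls depended on single libraries. Without ZT23 replicate 1 the fit called 11 genes, all among the 43. Without ZT23 replicate 2 it called 27, of which 19 were among the 43, and without ZT23 replicate 3 it called 37, of which 27 were. Without ZT3 replicate 1 it called 26 (22 of them among the 43), without ZT3 replicate 2 it called 20 (17) and without ZT3 replicate 3 it called 15 (14). Of the 43 genes, 7 stayed called in each of these 6 fits: tim, Cyp4d21, CAP and Sirup among the lower and CG11425, Drip and FASN1 among the higher genes. The other 36 were each lost in 1 or more of them. None of the 43 changed sign in any fit tried. Without the shallow ZT23 replicate 2 the adjusted p of Agpat2 was 0.151, that of kra and Cyp4p1 0.125, that of Nep6 0.0929 and that of CG5853 0.0527. It was 0.112 for CG14439, 0.0685 for CG6356, 0.0713 for CG13856 and 0.182 for CG15784. Among the lower genes it was 0.226 for CG32147, 0.103 for CG10345, 0.179 for sordd1, 0.12 for CG1943, 0.059 for CG42369, 0.0538 for Nop17l and 0.0647 for PolZ1. Of these genes, only CG15784 and CG1943 had their highest adjusted p of the 6 fits without this library. Leaving out ZT3 replicate 2 gave 0.178 for Nep6, 0.199 for CG10345, 0.185 for CG13856 and 0.169 for CG42369. Leaving out ZT3 replicate 3 gave 0.138 for Nop17l and 0.16 for PolZ1. For vri, cry, CG2121, Cpr, AGBE, Bcat and Acsx3, the loss of the call is given with their values. A fit to the 6 libraries alone, which has 4 residual degrees of freedom in place of 12, called 4 genes (tim, CG34134, Acsx3 and CG11425), while all 43 had an unadjusted p under 0.05 in it.

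In conRNAi heads the step from ZT23 to ZT3 held the most calls of the 6 steps of the day. The step before it, ZT19 to ZT23, gave 34 (0.459%). Between the other neighbouring times there were 6 calls from ZT3 to ZT7 (0.0809%), 5 from ZT7 to ZT11 (0.0674%), 6 from ZT11 to ZT15 (0.0809%) and 8 from ZT15 to ZT19 (0.108%). The 2 steps with most calls both contain the ZT23 libraries, and therefore the shallow one. Without ZT23 replicate 2 there were 27 calls from ZT23 to ZT3, 23 from ZT19 to ZT23, 16 from ZT15 to ZT19 and 6 to 8 at each of the other steps. The order of these steps was not the same in every genotype: conOE had 3 calls from ZT19 to ZT23 (0.0394%) and 1 from ZT23 to ZT3, heads labelled RNAi had 7 (0.0944%) and 5, and heads labelled OE had 2 from ZT23 to ZT3 and at most 1 at any other step.

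**Figure D2:**
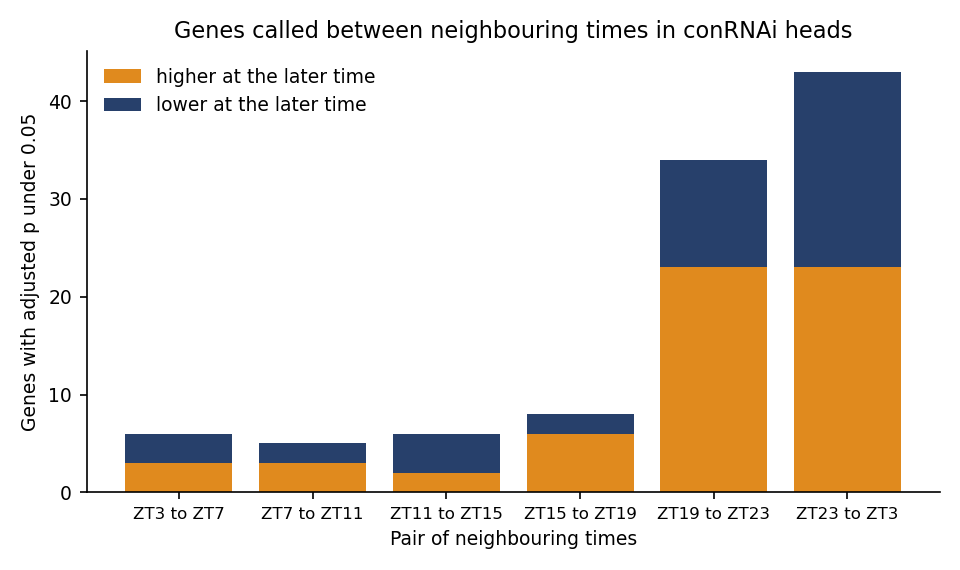
Number of genes with an adjusted p under 0.05 (y axis, limma-trend) between each pair of neighbouring times in conRNAi heads (x axis). Orange shows genes higher at the later time and dark blue genes lower at it. The step from ZT23 to ZT3 has 43 calls, the step from ZT19 to ZT23 has 34, and the others have 5 to 8.

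Among the core clock genes, tim and vri fell across lights-on. The tim values were 240.3, 189 and 194 at ZT23 and 59.8, 43.7 and 66.5 at ZT3. All 3 ZT3 libraries were far below all ZT23 libraries. The mean was 208 ± 28.2 (SD, n = 3) at ZT23 and 56.7 ± 11.8 at ZT3, which is -1.87 on the log2 scale (SE 0.15) with the lowest adjusted p of the comparison, 5.4e-08. Over the day tim rose from its lowest mean at ZT3 to 604 at ZT15, 10.7 times higher, so the step closes the falling limb of its cycle.

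The gene vri encodes a repressor of Clk transcription. Its values were 39.6, 56.4 and 44.3 at ZT23 and 22.4, 19.4 and 32.3 at ZT3, again without overlap (log2 change -0.91, SE 0.19, adjusted p = 0.0238). The mean at ZT3 was the lowest of its day, and the mean at ZT15 was 327. The call on vri was not made by edgeR on the recovered reads (adjusted p = 0.106), nor when ZT23 replicate 2 (adjusted p = 0.109), ZT3 replicate 1 (0.0819) or ZT3 replicate 2 (0.148) was left out. It was not called in any other genotype. The log2 change of vri was -0.44 in conOE, -0.25 in heads labelled RNAi and, with the sign reversed, 0.45 in heads labelled OE.

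The other 4 measured members of the list of clock repressors and transcription factors did not pass the test, so 2 of 6 members were called lower and none higher. Clk had 46.8, 16.1 and 43.4 at ZT23 and 40.3, 50.9 and 36.97 at ZT3, which overlap. Its log2 difference of 0.39 (adjusted p = 0.64) became -0.09 without ZT23 replicate 2, the library with the value of 16.1. Pdp1 encodes an activator of Clk, and its 3 ZT23 values, 153, 346 and 177, spanned those at ZT3 (158, 186 and 176; adjusted p = 0.625). The high Pdp1 value also came from ZT23 replicate 2, and without it the log2 difference was 0.07 in place of -0.29. For cwo, a repressor of the same target genes, the ZT3 values of 61.6, 58.2 and 54.5 lay just above the ZT23 values of 53.3, 52.3 and 48.98 (adjusted p = 0.808). The values of cyc overlapped (adjusted p = 0.912). The period gene per, also on the list, was not among the genes measured in this table and is not analysed here.

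Cryptochrome RNA moved the other way. The cry values were 141, 113 and 119 at ZT23 and 199, 244 and 194 at ZT3, and each ZT3 library exceeded each ZT23 library (log2 change 0.77, SE 0.17, adjusted p = 0.0293). The mean of cry stayed between 212 and 235 from ZT3 to ZT11 and between 109 and 125 from ZT15 to ZT23, so its step is an upward shift between a night level and a day level. The call on cry was lost in each of the 6 fits that left out a library, with adjusted p up to 0.185 (without ZT3 replicate 2), while its log2 change stayed within 0.66 to 0.86. It was the only one of the 12 measured members of the list of light input, kinase and neuropeptide genes to pass. The kinase gene dco (doubletime) had a log2 difference of 0.40 (adjusted p = 0.4), and the clock neuropeptide gene Pdf had -0.40 (adjusted p = 0.451).

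**Figure D3:**
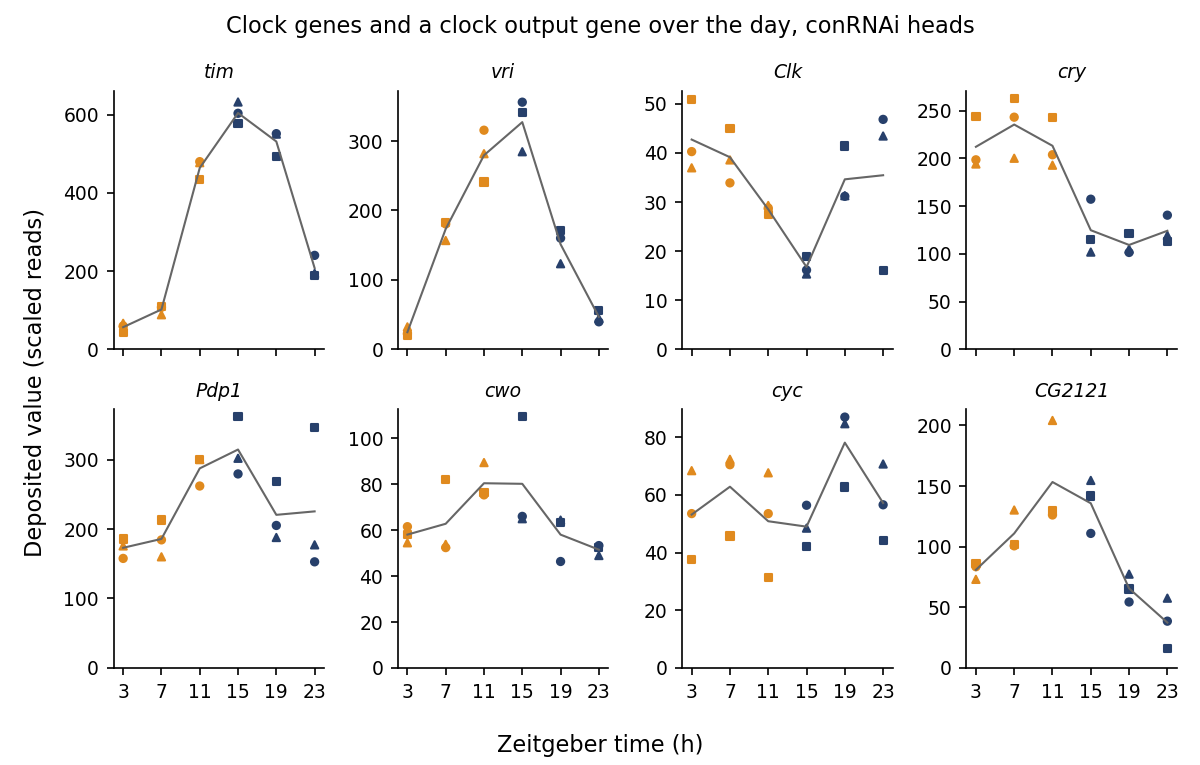
Deposited values (y axis, scaled reads, from 0) of 7 clock genes and the clock output gene CG2121 at the 6 Zeitgeber times (x axis, h) in conRNAi heads. Points are libraries, with the marker giving the replicate (circle 1, square 2, triangle 3), orange for ZT3 to ZT11 and dark for ZT15 to ZT23, and lines join the means. From ZT23 to ZT3, tim and vri reach their lowest means, cry moves from its night to its day level, and the ZT23 points of Clk and Pdp1 are spread by replicate 2.

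Of 14 measured head genes known as clock outputs, 1 was called higher and 2 lower, with a list median of -0.05 against 0.0038 over all genes. The 2 that fell encode cytochrome P450 enzymes. Cyp4d21, a P450 gene with sex-biased expression in the head, had 187, 173 and 291 at ZT23 and 113, 61.9 and 98.0 at ZT3 (log2 change -1.25, SE 0.21, adjusted p = 0.00643). Its ZT3 libraries were all lower, and its lowest mean of the day was at ZT3. Cyp18a1, which inactivates the moulting hormone ecdysone, fell from 54.5 ± 6.11 to 27.1 ± 4.25 (SD, n = 3; log2 change -0.99, adjusted p = 0.0128). The adjusted p of Cyp18a1 was 0.0731 without ZT23 replicate 1 and 0.0866 without ZT3 replicate 3. Its log2 change was -0.07 in conOE, 0.47 in heads labelled RNAi and -0.66 in heads labelled OE. The gene that rose, CG2121, went from 38.6, 16.1 and 57.5 to 83.4, 86.1 and 73.0. Its lowest value was again in ZT23 replicate 2, and its adjusted p of 0.0496 became 0.214 without that library. Across all 54 measured P450 genes, 1 was called higher (Cyp4p1, log2 change 0.85, adjusted p = 0.0244) and 2 lower. The gene for their electron donor, NADPH-cytochrome P450 reductase (Cpr), was also lower, at 527 ± 104 at ZT23 and 341 ± 38.4 at ZT3 (SD, n = 3; log2 change -0.61, adjusted p = 0.0469). Without ZT23 replicate 2 the adjusted p of Cpr was 0.24.

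Among the 23 higher genes were 8 of sugar and fat metabolism, grouped after their values were seen. The oxidative arm of the pentose phosphate pathway, a main source of NADPH for fat synthesis and for defence against oxidants, was represented by its first dehydrogenase, Zw (glucose-6-phosphate dehydrogenase), and by Pgd (6-phosphogluconate dehydrogenase). Zw had 136, 177 and 180.2 at ZT23 and 271, 251 and 298 at ZT3, and no ZT3 value was as low as any ZT23 value (log2 change 0.74, SE 0.14, adjusted p = 0.0134). Pgd had 358, 507 and 506 at ZT23 and 778, 653 and 879.9 at ZT3, likewise without overlap (log2 change 0.76, SE 0.14, adjusted p = 0.0127). All 6 measured members of the pentose phosphate list had a positive difference, with a median of 0.42, and 2 passed the test. Those that did not pass include Pgls (0.45, adjusted p = 0.266) and Taldo (0.39, adjusted p = 0.249). Another gene, bcn92, overlaps Pgd on the opposite strand in the reference annotation and had nearly the same change (0.76, adjusted p = 0.0101), so reads of the pair may not have been told apart. Leaving out ZT23 replicate 1 raised the adjusted p of Zw to 0.0949 and that of Pgd to 0.0908, and leaving out ZT3 replicate 3 gave 0.0879 and 0.0891. For Pgd it was 0.0507 without ZT3 replicate 1.

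The enzyme that turns a glycolytic intermediate into glycerol-3-phosphate, the backbone of stored fat, showed a larger change. Gpdh1 had 391, 535 and 459 at ZT23 and 708, 865 and 995 at ZT3, so every ZT3 library was above every ZT23 library. The mean rose from 462 ± 72.1 to 856 ± 144 (SD, n = 3), or by 0.89 on the log2 scale with an SE of 0.15 and an adjusted p of 0.00643. Gpdh1 stayed called in 4 of the 6 fits with a library left out, and its adjusted p was 0.0591 without ZT23 replicate 1 and 0.0528 without ZT3 replicate 3. Its partner in the glycerol phosphate shuttle, Gpo1, had 197, 165 and 208 at ZT23 and 257, 296 and 323 at ZT3 and did not pass (0.62, adjusted p = 0.0592). On the same list, the gluconeogenic gene Pepck1 had a difference of the opposite sign (-0.69, adjusted p = 0.328) with means of 2224 at ZT23 and 1394 at ZT3. In all, 1 of the 11 measured genes of gluconeogenesis, glyceroneogenesis and cataplerosis was called. The list median was -0.09, and 6 of the 11 had a negative difference. The lowest, -1.34, was larger in size than the change of Gpdh1 but was not called. With the replicate number added to the fit, 2 of the 11 were called higher and 1 lower.

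Fatty acid synthase 1 (FASN1), which builds fatty acids from acetyl groups, had 1174, 1236 and 1419 at ZT23 and 1789.95, 2048 and 1973 at ZT3. The groups did not overlap, and the change of 0.60 (SE 0.10, adjusted p = 0.00643) held in each fit with a library left out. Genes of 2 later steps of lipid assembly also rose, both outside the lists: Agpat2, an acyltransferase that makes phosphatidic acid (49.5 ± 11.5 to 88.1 ± 12.4, log2 change 0.84, adjusted p = 0.0323), and Pect, an enzyme of phosphatidylethanolamine synthesis (748 ± 130.2 to 1161 ± 66.3, log2 change 0.65, adjusted p = 0.0101). The remaining 10 measured members of the list of lipid synthesis and storage did not pass, among them ACC, which makes the substrate of fatty acid synthase (0.30, adjusted p = 0.343), and the lipid droplet gene Lsd-1 (0.35, adjusted p = 0.226). Of the 11 measured genes for lipolysis and beta oxidation none passed by limma or edgeR (1 at an unadjusted p under 0.05), with a median of -0.16.

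In glycolysis, Pgk (phosphoglycerate kinase) passed with 765, 949.9 and 886 at ZT23 against 1124, 1309 and 1235 at ZT3 (log2 change 0.50, SE 0.11, adjusted p = 0.0336). The ZT3 libraries were all higher. Of the 13 measured glycolytic genes 11 had a positive difference, with a median of 0.25. The nearest to Pgk were Pgi (0.44, adjusted p = 0.0724), Gapdh2 (0.41, adjusted p = 0.0774) and Gapdh1 (0.41, adjusted p = 0.13), none of which was called. With the replicate number added to the fit, 4 of the 13 glycolytic genes were called higher. AGBE, the branching enzyme of glycogen synthesis, rose from 371 ± 16.7 to 539 ± 28.5 (SD, n = 3; log2 change 0.54, adjusted p = 0.0292). Bcat, the aminotransferase of branched-chain amino acids, rose from 112 ± 3.72 to 178 ± 13.8 (0.66, adjusted p = 0.0286). The calls on Pgk, AGBE, Agpat2 and Bcat were each lost when ZT23 replicate 1, ZT3 replicate 2 or ZT3 replicate 3 was left out, with adjusted p of up to 0.185, and those on AGBE and Bcat in all 6 such fits.

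The mean of Zw, Pgd, Gpdh1, FASN1, Pgk, Agpat2, Pect and AGBE was highest at ZT3 and lowest at ZT23 in each case, as it was for 16 of all 23 higher genes. For Gpdh1 the means went from 856 at ZT3 through 694, 664, 580 and 559 to 462 at ZT23. For Pgd they went from 770.1 through 722, 692, 632 and 579 to 457. In Gpdh1, Pgd, Pgk and AGBE the mean fell at each time from ZT3 to ZT23, whereas Zw, FASN1, Agpat2 and Pect did not fall at every time. The genes were called for being higher at ZT3 than at ZT23, so only their means in between are separate from that difference. The means of tim and vri peaked at ZT15.

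**Figure D4:**
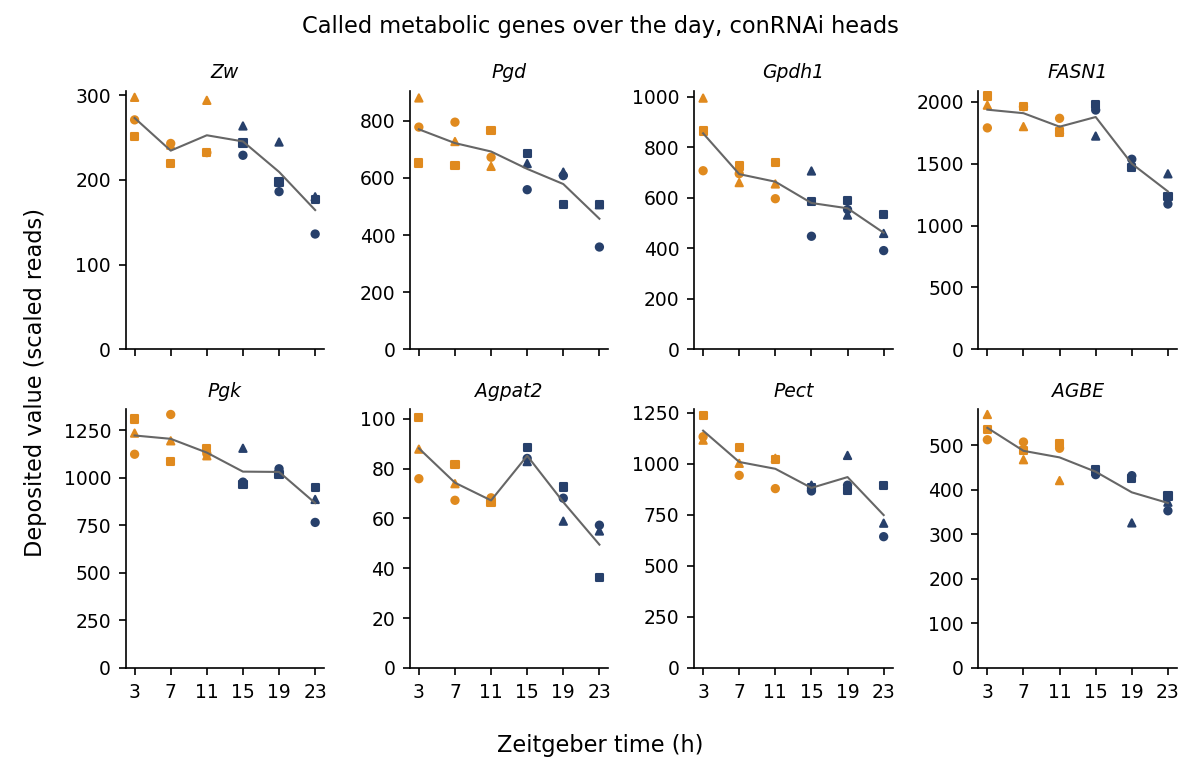
Deposited values (y axis, scaled reads, from 0) of the 8 called metabolic genes at the 6 Zeitgeber times (x axis, h) in conRNAi heads, drawn with the same markers as the clock genes. Each has its highest mean at ZT3 and its lowest at ZT23, and Gpdh1 falls from 856 to 462 between them.

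The largest increase of all was CG11425, a predicted lipid phosphate phosphatase gene. It had 218, 475 and 437 at ZT23 and 1015, 1315 and 1006 at ZT3, so the lowest ZT3 library had more than the highest ZT23 library. Its log2 change was 1.63 (SE 0.24, adjusted p = 0.0023), and CG11425 and tim were the only genes called under every alternative tried. Its means also declined from 1112 at ZT3 to 377 at ZT23. CG10962 followed, with 65.9, 121 and 96.7 at ZT23 and 384, 207 and 196 at ZT3 (1.44, adjusted p = 0.0101). It overlaps rdgA, a gene of the photoreceptor lipid cycle on the opposite strand, which had a difference of 0.15 (adjusted p = 0.838).

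Drip, which encodes an aquaporin water channel, had 101, 105 and 113 at ZT23 and 218, 179.5 and 179.3 at ZT3. The 2 groups were well apart (log2 change 0.85, SE 0.13, adjusted p = 0.00552), and Drip was called in each fit with a library left out. CG15784 had 726 in ZT3 replicate 1 but 229 and 251 in the other ZT3 libraries, against 129 to 164 at ZT23 (1.21, adjusted p = 0.0496), so its size rests on 1 library, and without ZT3 replicate 1 its log2 change was 0.67. The translation regulator gene kra rose from 255 ± 22.5 to 373 ± 14.1 (0.55, adjusted p = 0.0346). CG13856, CG6356, CG5958 and CG14439 were also higher at ZT3, with log2 changes of 1.25, 0.86, 0.76 and 0.74.

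Among genes that fell, CG34134 came closest to tim. It had 1167, 1002 and 1202 at ZT23 and 479, 329 and 442 at ZT3, a complete separation (log2 change -1.44, SE 0.28, adjusted p = 0.0128). CG34134 was at its daily peak at ZT23 and went on falling after ZT3, to means of 63.5 at ZT7 and 26.0 at ZT11, a 43.2-fold range over the day. Acsx3, of the acyl-CoA synthetase family, had 191, 193 and 193 at ZT23 and 91.5, 81.3 and 74.9 at ZT3 (-1.21, SE 0.25, adjusted p = 0.023). The 3 ZT23 libraries of Acsx3 were almost equal, and its trough was also later, with a mean of 33.4 at ZT15. Both were called in the fit to the 6 libraries alone. In the fit to all times, the adjusted p of CG34134 was 0.0846 without ZT3 replicate 2, 0.0626 without ZT23 replicate 1 and 0.0528 without ZT3 replicate 3. Acsx3 stayed called only without ZT3 replicate 1, with adjusted p of up to 0.101 (without ZT3 replicate 3).

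Sirup, an assembly factor of the mitochondrial enzyme succinate dehydrogenase, had 1147, 1087 and 1134 at ZT23 and 739.9, 614 and 751 at ZT3 (log2 change -0.68, SE 0.12, adjusted p = 0.00643). The spread within each time was small beside the step. CAP, an adaptor protein gene of the cytoskeleton, fell from 202 ± 27.6 to 109 ± 15.3 (-0.88, adjusted p = 0.00643). CG5853, a gene of the ABC transporter family, was at 133, 205 and 149.9 at ZT23 and at 89.2, 86.1 and 64.7 at ZT3 (-1.003, adjusted p = 0.0101). Nep6, of the neprilysin family of peptidases, fell from 234 ± 17.7 to 129.8 ± 33.7 (-0.87, adjusted p = 0.0244).

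Nop17l and PolZ1 overlap on opposite strands and had almost the same values at ZT23 and ZT3 (means of 131 and 83.6 for Nop17l, 130.2 and 84.4 for PolZ1). Their changes of -0.64 and -0.62 may therefore be 1 signal. The rest of the lower set was CG32147 (-1.12), CG10345 (-0.86), pkm (-0.69), CG10799 (-0.63), CG42369 (-0.63), sordd1 (-0.56) and CG1943 (-0.52). Of the 43 called genes, 12 belong to a list and 31 to none. Of all 7413 genes tested, 778 belong to a list, and no test was made of these counts.

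Genes that respond to neuronal activity or act as immediate early genes were set out as a list because light drives photoreceptors. The list names 13 genes, of which 9 were measured. Hr38 and sr, both activity-regulated genes, were not, so nothing can be said of them here. None of the 9 measured was called (limma), and edgeR on the recovered reads called none either. At an unadjusted p under 0.05 there were 5, of which 4 had a positive difference, and the list median was 0.27. Mkp3, a phosphatase gene that dampens ERK signalling, had 15.8, 12.1 and 19.6 at ZT23 and 27.0, 24.3 and 26.8 at ZT3 (0.71, adjusted p = 0.382). Atf3, a stress-responsive transcription factor gene, had 42.9, 24.2 and 37.1 at ZT23 and 55.8, 57.0 and 45.3 at ZT3 (0.62, adjusted p = 0.336). In both the ZT3 libraries were all above the ZT23 libraries. Jra and kay, which encode the fly Jun and Fos, had 0.44 (adjusted p = 0.439) and 0.17 (adjusted p = 0.807). The gene cbt itself overlapped between the times, at 324 ± 33.5 and 302 ± 60.1 (-0.12, adjusted p = 0.798), and its difference was 0.06 without ZT3 replicate 1. CG8910 had -0.41 (adjusted p = 0.336), CG14186 0.58, CG17778 0.27 and puc 0.11, none of them called.

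Visual genes gave no call either in the main fit. None of 34 measured phototransduction genes passed with limma or with edgeR (9 at an unadjusted p under 0.05), and their median was 0.06. With the replicate number added to the fit, 1 of the 34 was called higher. The nearest was santa-maria, a scavenger receptor gene needed for making visual pigment, at 264, 234 and 295 at ZT23 and 416, 327 and 361 at ZT3 (0.48, adjusted p = 0.0714). Pdh, a retinol dehydrogenase gene of the visual pigment cycle, had 5702 ± 286 and 7097 ± 640 (0.31, adjusted p = 0.313), and Rh5, a blue-sensitive opsin gene, had -0.36 (adjusted p = 0.328). No eye pigment gene of 10 passed by limma or edgeR (3 at an unadjusted p under 0.05), and 6 had a negative difference.

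The lists of antimicrobial and recognition genes and of glutathione transferases had no call by limma. Of 26 measured antimicrobial peptide and recognition genes 20 had a positive difference, with a median of 0.32 and 10 at an unadjusted p under 0.05 (11.3% of all genes). The median of this list was 0.15 in conOE, but -0.32 in heads labelled RNAi and -0.17 in heads labelled OE. PGRP-LB, a peptidoglycan-degrading recognition protein gene, had 15.1, 12.1 and 16.6 at ZT23 and 39.1, 25.5 and 34.2 at ZT3 (1.11, adjusted p = 0.0751). The antimicrobial gene AttC had 203, 402 and 270.04 at ZT23 and 1275, 549 and 403 at ZT3, so its lowest ZT3 value lay just above its highest ZT23 value (1.22, adjusted p = 0.23). Of 25 glutathione transferase genes 18 had a positive difference and 5 an unadjusted p under 0.05, with GstE9 (0.48, adjusted p = 0.06) and GstD9 (0.74, adjusted p = 0.0712) nearest to a call. With TMM or median-ratio scaling 1 glutathione transferase gene was called higher. With the replicate number added to the fit, 2 of these genes were called higher, as was 1 antimicrobial or recognition gene.

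Lists of housekeeping genes stayed close to 0. The median over 84 cytoplasmic ribosomal protein genes was 0.0083 with log2 differences from -0.24 to 0.23, over 71 mitochondrial ribosomal protein genes -0.05, and over 33 proteasome genes 0.11. None of these genes was called by limma or edgeR, and at an unadjusted p under 0.05 there were 0, 8 and 1. Of the 13 measured transcripts encoded by the mitochondrial genome 12 had a positive difference, with a median of 0.15, 2 at an unadjusted p under 0.05 and no call by limma or edgeR. Of 40 lists with measured members, 9 had a called member.

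The called genes were also read at ZT7 and ZT19. The means at these times are outside the contrast, but their libraries entered the estimate of the spread behind the calls. Of the 23 genes higher at ZT3, 22 had a higher mean at ZT7 than at ZT19, against 3776 of 7413 genes in all, with a median log2 difference of 0.31. Of the 20 lower genes, 17 had a lower mean at ZT7 than at ZT19, with a median of -0.47. Of the higher genes, 21 had their lowest mean of the day at ZT23 and 17 their highest at ZT3, against 1682 and 1263 of the 7413 genes. Of the lower genes, 13 had their lowest mean at ZT3 and 10 their highest at ZT23, against 1228 and 1814 of all genes. Being called between these 2 times itself favours such extremes, so nothing is read from them. For vri the mean at ZT7 (173) exceeded that at ZT19 (151). This comparison of ZT7 with ZT19 was chosen after the values were seen.

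The same step was then examined in the 3 genotypes that share no library with conRNAi. In each of them, as in conRNAi, replicate 2 was the shallowest ZT23 library. It held 528555 reads in heads labelled OE, and the depths of the other 2 genotypes are given below. The part of this shared depth pattern in the repeats was not tested. In conOE heads, which have 2 libraries per time, 1 of 7611 genes was called (0.0131%): tim, with 267 and 215 at ZT23 and 67.8 and 49.9 at ZT3 (-2.03, SE 0.19, adjusted p = 0.00101). Of the 42 called genes measured there, 36 had the sign seen in conRNAi, against 55.9% of all shared genes, and 16 had that sign with an unadjusted p under 0.05, against 5.33%. None had the opposite sign with an unadjusted p under 0.05. CG34134 had 958 and 920.3 at ZT23 and 221 and 315 at ZT3 (-1.83, adjusted p = 0.0745), and CG11425 had 305 and 515 at ZT23 and 786 and 1112 at ZT3 (1.24, adjusted p = 0.586). FASN1 had 1132 and 1190.4 at ZT23 and 1953 and 1767 at ZT3 (0.68, adjusted p = 0.474). Zw had a difference of -0.03 in conOE (SE 0.23, adjusted p = 0.98). Among the other metabolic genes, Gpdh1 had 0.85, Pgd 0.70, Pect 0.63 and Pgk 0.26 in conOE. Agpat2 (-0.04) and AGBE (0.02) were near 0 there. Replicate 2 at ZT23 was the shallow library of conOE as well, with 763012 reads, and leaving out its deeper partner gave 127 calls in place of 1.

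**Figure D5:**
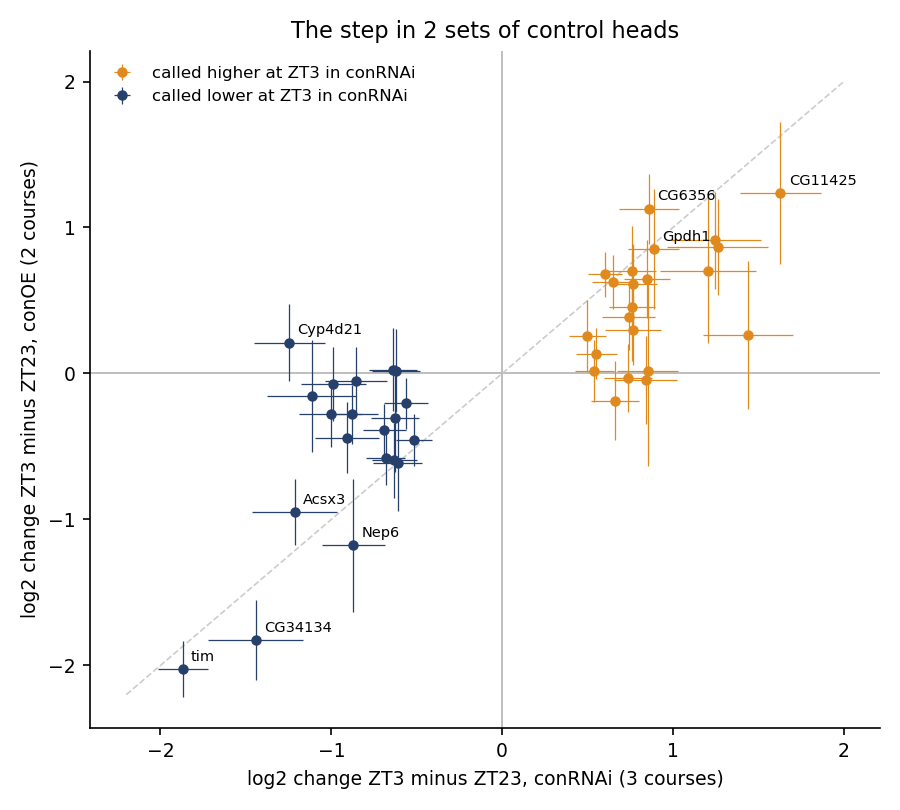
Log2 change from ZT23 to ZT3 in conRNAi heads (x axis, 3 libraries per time) and in conOE heads (y axis, 2 libraries per time) for the 42 called genes measured in both tables. Bars are standard errors of the fits, the dashed line marks equal changes, and orange and dark blue mark genes called higher and lower at ZT3 in conRNAi. Of the 42 points, 36 lie in the quadrants of equal sign, with tim and CG34134 farthest down and CG11425 farthest up.

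In heads labelled RNAi, 5 of 7413 genes were called (0.0674%), of which 3 were among the 43: tim (-1.79, adjusted p = 0.00045), Zw (1.02, adjusted p = 0.00501) and Sirup (-0.66, adjusted p = 0.0413). The other 2, Pdh and dlp, were not called in conRNAi. Of the 43 genes 37 had the same sign in heads labelled RNAi (52.9% of all genes), 12 of them with an unadjusted p under 0.05 (7.16% of all genes). In heads labelled OE, 2 of 7611 genes were called (0.0263%), tim (-1.85, adjusted p = 0.00265) and CG34134 (-1.97, adjusted p = 0.0277). There 37 of 42 had the same sign (53.5% of all shared genes), 11 of them with an unadjusted p under 0.05 (4.46%). In heads labelled RNAi and OE, in that order, Zw had 1.02 and 0.41, Gpdh1 0.40 and 0.62, and Pgd 0.11 and 0.65. Pgk had 0.31 and 0.38, Pect 0.17 and 0.32, and FASN1 0.31 and 0.03. AGBE had -0.04 and 0.17, and Agpat2 0.01 in both. Taking the 3 genotypes together, 13 of the 23 higher and 14 of the 20 lower genes had the sign of conRNAi in each. Only 22 of the 23 higher genes were measured in conOE and in heads labelled OE. The share of all genes with the same sign in each genotype is not given here, so nothing is read from these 2 counts. The median log2 change of the higher genes was 0.77 in conRNAi, 0.53 in conOE, 0.20 in heads labelled RNAi and 0.33 in heads labelled OE, and that of the lower genes was -0.86, -0.35, -0.28 and -0.33. The genes were called in conRNAi, so the values there are selected and those elsewhere are not.

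The difference of the step between heads labelled RNAi and conRNAi was tested directly, since both are in the same table. No gene passed (limma; 720 at an unadjusted p under 0.05), and edgeR on the recovered reads called none either. For cry the step was 0.77 in conRNAi and -0.11 in heads labelled RNAi (difference -0.87, SE 0.24, unadjusted p = 0.00101, adjusted p = 0.265). For CG11425 the difference was -1.14 (SE 0.47, adjusted p = 0.43) and for Gpdh1 -0.48 (SE 0.23, adjusted p = 0.495). For tim it was 0.08 with an SE of 0.28 (adjusted p = 0.94). The libraries of heads labelled RNAi at ZT23 held 4190592, 394282 and 636081 reads. Without the deepest of them, replicate 1, 80 genes were called in the difference, and the cause was not tested.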

How the data were processed

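RNA from fly heads was taken through 3′ RNA-seq with poly(A) selection after fragmentation, per the labels' protocols. Per the submitters' processing notes reads were handled with Bowtie and TopHat on dm3. No source used here names the counting tool, annotation, strand setting or scaling. The deposited signal is, from its values, a read count divided by a factor per library: multiplied back, all values came out whole, within 0.05 reads, for 59 of the 60 libraries. A transcript appears in a table only with reads in each of its libraries, so genes silent at some time are absent.

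The transcript of highest mean was kept per gene, leaving 7413 genes in the RNAi table and 7611 in the overexpression table. Of the 7413, 7186 were named by locus tag, 176 by synonym and 51 by their listed name in a RefSeq gene table (Release 6 plus ISO1 MT), another build than dm3, so no coordinates are given. Overlaps of genes were read from an Ensembl annotation. Log2(value + 1) was fitted by limma-trend 3.58.1 in R 4.3.3 with 1 mean per time over all libraries of a genotype and Benjamini-Hochberg adjustment. Tables were fitted separately because they were scaled separately. edgeR 4.0.16 (quasi-likelihood) was run on the recovered reads as an alternative, since the files give scaled values. Scripts were tested on simulated data. The alternatives were other scalings, pseudocounts of 0.5 and 5, a minimum mean of 10, every transcript, the replicate block, the 2 times alone and leaving out libraries. A description of promoter motifs was planned and not carried out, since no promoter sequences were at hand.

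The genes, lists and tests were chosen with earlier results of these data known. The rule named the 15 largest called increases and decreases, the clock and activity lists, up to 4 genes of lowest p in each other list and 5 genes of lowest p in the difference between genotypes. The other called genes (AGBE, kra, Pect, Bcat, CG14439, CG42369, PolZ1, Cpr, sordd1 and CG1943), rdgA and dlp were named after their values were seen. 1 of the 43 called genes is counted among them but its result is not reported here.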

Additional observations from a re-analysis of the deposited data

Results flagged for a closer look

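For 6 of the genes named here every library moved in opposite directions in conRNAi and in another genotype. The share of all genes that do so is not given, so nothing is read from this count. In conRNAi alone, 14.2% of all genes tested had ZT3 and ZT23 values without overlap. The genes spn-F, trio and Spase12 were named for a low p in the difference between heads labelled RNAi and conRNAi. Their opposite changes there were thus selected. Cyp4d21 changed by -1.25 (log2) in conRNAi and 0.21 in conOE, Bcat by 0.66 and -0.19, and trio by -0.28 and 0.17. CG14439 changed by 0.74 in conRNAi and -0.22 in heads labelled OE. These 4 differences were not tested, because the tables were scaled separately. In heads labelled RNAi, which share a table with conRNAi, spn-F changed by 1.23 against -1.14 in conRNAi (adjusted p of the difference 0.108, limma), trio by 0.81 against -0.28 (adjusted p = 0.218) and Spase12 by -0.79 against 0.57 (adjusted p = 0.218), and none of the 3 differences passed.

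The spn-F values in conRNAi were 27.7, 60.4 and 32.8 at ZT23 and 23.01, 12.1 and 16.6 at ZT3, while in heads labelled RNAi they were 18.9, 7.49 and 8.83 at ZT23 and 23.6, 29.6 and 27.4 at ZT3. The largest departures of spn-F at ZT23 were in replicate 2 of both genotypes, the shallowest library of each.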

How the results depend on the processing

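Scaling, pseudocount, low-value filter, edgeR (36 of the 43 genes shared, 41 called) and transcript choice left the conRNAi counts within 1.5 times of 43, 23 higher and 20 lower. The 6 libraries alone gave 4 (1 and 3). Leaving out 1 library gave 11 to 37 calls, 3 to 25 higher and 8 to 15 lower. Leaving out a replicate number at both times, chosen after seeing the data, gave 6, 14 and 13 calls without numbers 1, 2 and 3 (2, 11 and 8 higher, 4, 3 and 5 lower). Same-numbered ZT3 and ZT23 libraries deviated together only weakly (r of 0.068, 0.052 and 0.062). The labels do not say that a number marks shared flies, so the numbers were not taken as pairs. Over all 6 times the median r was higher for same-numbered pairs, at 0.11 for 45 pairs (-0.046 to 0.30) against -0.061 for 90 of different number. Some structure shared by number is therefore left in the spread of the main fit. With the replicate block 103 genes were called, 60 higher and 43 lower, including the original 43. Calls in conOE were 2 with a pseudocount of 5, edgeR or the block, 0 with the 2 times alone (378 at an unadjusted p under 0.05) and 1 to 127 with a library left out. In heads labelled RNAi they were 9 with the block or every transcript, 0 with the 2 times alone (413 unadjusted) and 1 to 209 with a library left out, and in heads labelled OE 1 to 352. The difference between genotypes gave 0 to 80. The largest counts came without the deep ZT23 replicate 1, and the cause was not tested. Of 1037 gene values 9 reversed, none of a called gene: Clk (-0.09 without ZT23 replicate 2, -0.22 without number 2, up to 0.65 without ZT23 replicate 1), Pdp1 (0.07, 0.02 and down to -0.52 likewise), cyc (0.04 without ZT23 replicate 3, 0.11 without ZT3 replicate 2, -0.32 without ZT3 replicate 3), cbt (0.06 without ZT3 replicate 1, 0.03 without number 1) and ema (0.06 without number 2). Depth limits weak genes most in ZT23 replicate 2, where 1 read is worth 4.03.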

Other observations

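Of the 23 genes higher at ZT3, 7 lie on the X chromosome (30.4%), against 16.9% of the genes tested, and 2 of these 7 are the overlapping pair Pgd and bcn92. Of the 20 lower genes, 4 lie on the X and 8 on chromosome arm 2L, which holds 17.7% of the genes tested. Arm 2L also holds 6 of the 23 higher genes. Arm 3L, with 18.8% of the genes tested, holds 1 higher and 1 lower gene. These counts were not planned, and no test was made of them.

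Yolk protein RNA, which marks females, differed between libraries more than between the times. Yp2 stood at 38469, 72704 and 32020.5 at ZT23 and 43026, 94421 and 59546 at ZT3 (replicates 1, 2 and 3). Replicate 2 was highest at both times, and its part in the results was not tested.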
